A study of Mus musculus with 9 samples.

Results

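Binding of the ETS factor Ets1 was mapped by CUT&Tag in mature adipocytes of inguinal white fat. The regions described here are the peaks of the room temperature library (RT) that overlapped a peak of the cold stress library (CS) by at least 1 bp and overlapped no ATAC peak of Flox adipocytes. There were 951 such regions among the 4056 RT peaks, which is 23.4% of the list (95% interval 22.2 to 24.8%, counting error only). The regions were thus chosen by the measured peak calls of RT, CS and Flox ATAC, and their presence in or absence from these 3 lists is a description and not a result. With CS cut to its 4056 strongest peaks, 412 regions were left (10.2% of RT peaks). Of all RT peaks, 44.1% overlapped a CS peak and 24.3% overlapped a Flox ATAC peak. The remaining RT peaks were 839 found in CS and inside Flox ATAC peaks (the open shared peaks), 2119 outside Flox ATAC peaks and not found in CS (the RT-only closed peaks), and 147 open peaks not found in CS.

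The series held 9 peak lists, each from 1 library, so no difference between groups could be tested and the spread between animals is unknown. CS mice spent 7 days in the cold. CS and RT mice were wild type C57 males aged 8 to 10 weeks. H3K27ac, an acetyl mark of active promoters and enhancers, was profiled by CUT&Tag in adipocytes of EA+/+ mice, which carry an Ets1 knock-in cassette at Hipp11 opened by Adipoq-cre, and of EC+/+ mice, which carry the cassette without the Cre. The mark was also profiled in EAKO mice, whose floxed Ets1 is removed by Adipoq-cre, and in Flox mice, which carry the floxed allele without the Cre, and ATAC was run on EAKO and Flox adipocytes. All of these mice were males of the same age range as above. Adipoq-cre acts in adipocytes, so other cells in the floating fraction keep their own Ets1 state. The last list is Ets1 in beige adipocytes, differentiated in culture for 6 days from stromal vascular cells of wild type males aged 3 to 4 weeks. The H3K27ac lists covered 12.6 Mb in EA+/+ and 11.5 Mb in EC+/+, and 40.1 Mb in EAKO and 41.2 Mb in Flox, and the Ets1 lists covered 9.86 (beige), 4.69 (CS) and 1.05 Mb (RT). At promoters of 22 adipocyte genes, between 14 and 17 carried a peak in each H3K27ac and ATAC list, and the 9 lists of marker genes of other cell types were not empty. Across these libraries a promoter peak was found at 2 to 5 of 5 progenitor, 2 to 4 of 5 endothelial, 1 to 3 of 3 mesothelial, 1 to 2 of 3 mural, 1 to 2 of 3 Schwann cell, 0 to 2 of 3 skeletal muscle, 0 to 1 of 3 epithelial, 1 to 2 of 6 macrophage and 0 to 2 of 5 lymphocyte genes. The part of other cells in the results was not tested. The paper reports similar numbers of reads for RT and CS, and more for beige Ets1. Among the H3K27ac libraries it reports the most reads for EA+/+ and similar numbers for EC+/+, EAKO and Flox. What sequencing depth adds to a list was not tested.

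ETS factors recognise DNA through a GGAA core, and CCGGAA is a common start of their full site. In CUT&Tag an antibody tethers a transposase to the target, and in ATAC a free transposase cuts open chromatin. A mammalian genome also holds tandem repeats. Microsatellites repeat a unit of a few bases, telomeres repeat TTAGGG, and satellites near the centromeres repeat longer units over long arrays. Long repeat arrays are hard to assemble, and the reference genome holds only some of their copies. Tracts of alternating purines and pyrimidines such as CA repeats can also take up unusual helical forms.

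The windows that follow cover the RT summit and 100 bp on each side on mm10, read from the plus strand. They stand for the sequence groups on which the results turn, and each one is the strongest of its group by RT signal unless stated. First come 2 regions related to each other by a satellite-like sequence, the strongest and the third strongest of that group, with capitals on the 36-base words also found in another of the 951 regions.

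Satellite words, chr12:3109863-3110063: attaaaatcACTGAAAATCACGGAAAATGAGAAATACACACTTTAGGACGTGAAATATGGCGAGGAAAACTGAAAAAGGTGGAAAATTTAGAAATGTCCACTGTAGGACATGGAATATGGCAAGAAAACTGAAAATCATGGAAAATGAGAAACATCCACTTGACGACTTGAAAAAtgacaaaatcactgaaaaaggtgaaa

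Satellite words, chr9:3002031-3002231: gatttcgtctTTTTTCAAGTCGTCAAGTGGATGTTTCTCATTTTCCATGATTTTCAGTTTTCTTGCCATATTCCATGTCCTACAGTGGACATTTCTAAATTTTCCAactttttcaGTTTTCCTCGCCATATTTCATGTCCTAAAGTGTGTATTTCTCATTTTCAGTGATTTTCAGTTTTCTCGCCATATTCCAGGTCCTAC

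The next window is a run of the 5-base unit ACAGC, with CACAG or its complement in capitals.

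ACAGC run, chr13:74530444-74530644: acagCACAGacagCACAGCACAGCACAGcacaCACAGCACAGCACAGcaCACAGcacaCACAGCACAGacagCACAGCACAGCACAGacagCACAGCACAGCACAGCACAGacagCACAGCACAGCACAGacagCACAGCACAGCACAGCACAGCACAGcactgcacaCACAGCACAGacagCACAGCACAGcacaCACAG

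The strongest region in single-copy sequence with an uninterrupted CA run is shown next, as an example of CA sequence. Single-copy means here that at most 50% of the 36-base words of the peak occurred at another position of the genome. CA tracts, defined below, need not be unbroken and were more frequent than uninterrupted CA runs. Capitals mark CACA, ACAC and their complements.

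CA run, chr9:58767460-58767660: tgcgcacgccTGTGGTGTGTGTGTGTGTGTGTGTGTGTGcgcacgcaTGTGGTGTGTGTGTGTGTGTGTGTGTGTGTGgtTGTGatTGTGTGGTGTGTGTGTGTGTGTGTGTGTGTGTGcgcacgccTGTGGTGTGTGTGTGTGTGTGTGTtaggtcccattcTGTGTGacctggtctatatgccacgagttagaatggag

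For contrast, the strongest region that met none of the tandem or multi-copy criteria is shown with its GGAA in capitals, although 66.7% of its window is soft-masked as repeat or low-complexity sequence in the reference genome. It is followed by the strongest open shared peak that holds CCGGAA, with that word in capitals.

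No criterion met, chr2:3050117-3050317: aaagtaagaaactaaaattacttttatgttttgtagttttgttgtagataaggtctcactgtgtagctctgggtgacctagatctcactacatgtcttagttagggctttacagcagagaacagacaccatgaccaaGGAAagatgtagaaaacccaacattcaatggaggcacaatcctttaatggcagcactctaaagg

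Open shared peak, chr11:109011718-109011918: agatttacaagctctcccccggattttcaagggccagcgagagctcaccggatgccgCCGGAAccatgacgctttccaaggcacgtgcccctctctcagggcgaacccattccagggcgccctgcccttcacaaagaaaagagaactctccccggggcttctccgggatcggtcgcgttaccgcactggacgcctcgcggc

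Short-period tandem repeats made up most of the 951 regions. A CA tract, defined as CACA, ACAC or their complements covering at least 30% of the 201 bp window on either strand, was present in 518 regions (54.5%, interval 51.3 to 57.6%). The share was 31.7% in RT-only closed peaks, 4.29% in open shared peaks and 0.77% in 26477 windows placed every 100 kb along the genome. The median tract cover was 36.8% in the 951 regions, against 8.96% in RT-only closed peaks, 2.99% in open shared peaks and 4.48% in the genome windows. The tract measure counts these words at any spacing, so a tract need not have a period of 2 bases. ACAGC runs can meet it too, as at chr13:74530438-74530652 with a cover of 68.7%. The tract, the self-match measure and the sequence groups below were chosen after the sequences had been seen.

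Perfect CA runs were much less frequent than CA tracts. An unbroken CA run of at least 20 bp was found in 98 regions (10.3%, interval 8.53 to 12.4%), close to the 10.7% of RT-only closed peaks and above the 0.954% of open shared peaks and the 2.07% of genome windows. The share was 28.3% for runs of at least 12 bp and 4.21% for at least 30 bp. The longest CA run was 136 bp. Perfect runs of other dinucleotides were rare, with an AG run in 5 regions (0.526%) and 0.876% of genome windows, and an AT run in 0 regions, which allows a share of up to 0.315%, and 0.298% of genome windows.

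Short-period repetition was read by sliding each window along itself and taking the best match at a shift of 2 to 60 bases. The best shift can be a multiple of the repeat unit. The telomere-like run at chr8:83756779-83756985, for example, matched best at 36 bases. At least 60% of bases matched in 587 regions (61.7%, interval 58.6 to 64.8%), in 27.4% of RT-only closed peaks, in 10.0% of open shared peaks and in 1.21% of genome windows. The median best match was 65.2%, against 37.6% in RT-only closed peaks, 38.0% in open shared peaks and 35.4% in genome windows. Among the 587, the best shift was 2 bases in 105 regions, 5 bases in 39, 10 bases in 31 and 16 bases in 21. At longer shifts of 30 to 400 bases, 77 regions (8.10%) matched themselves over 60% of bases, against 2.60% of RT-only closed peaks and 3.69% of open shared peaks.

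**Figure D1:**
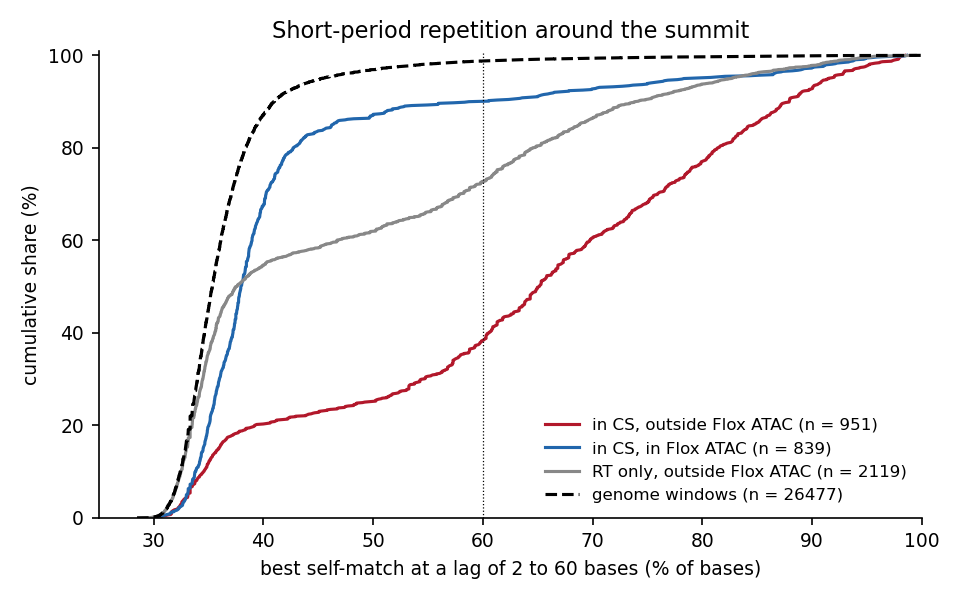
Cumulative share of peaks or genome windows (vertical axis, %) by the best self-match of the 201 bp window at a shift of 2 to 60 bases (horizontal axis, % of bases), with a dotted line at 60%. The curve of the regions in CS and outside Flox ATAC lies to the right of the other 3, with 61.7% of regions at or past the line, against 27.4% of RT-only closed peaks.

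To account for every region, each was placed in the first group it met, in the order satellite words, telomere-like run, ACAGC run, CA tract, other short-period repeat, other multi-copy sequence, and none of these. Satellite words were found in 6 regions, telomere-like runs in 13, ACAGC runs in 44, CA tracts in a further 475 (49.9%), and other short-period repeats in 157 (16.5%). Other multi-copy sequence accounted for 45 regions (4.73%) and 211 (22.2%, interval 19.7 to 24.9%) met no criterion. The share meeting none was 59.2% in RT-only closed peaks, 87.7% in open shared peaks and 82.4% in genome windows. Other multi-copy sequence was found in 3.21% of RT-only closed peaks, 0.596% of open shared peaks and 15.8% of genome windows.

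**Figure D2:**
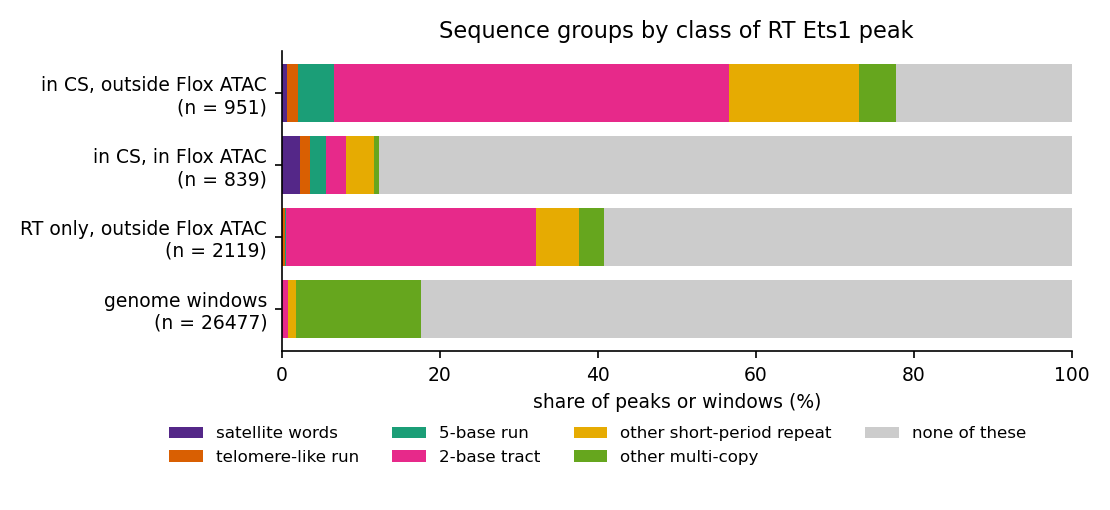
Shares of peaks or windows (horizontal axis, %) in each sequence group, for the regions in CS and outside Flox ATAC, 2 other classes of RT peak and windows of the genome. The 5-base run is the ACAGC run. The 2-base tract is the CA tract, which need not have a 2-base period. It fills 49.9% of the top bar, against 2.50% of open shared peaks. Regions in none of the groups fill 22.2% of the top bar.

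Soft-masked bases, which mark repeats and low-complexity sequence in the reference genome, filled a median of 74.6% of the window in these regions, against 28.4% in RT-only closed peaks, 0% in open shared peaks and 23.9% in genome windows. Multi-copy sequence was a smaller part. Over 50% of the 36-base words of the window occurred at another position of the genome in 218 regions (22.9%, interval 20.4 to 25.7%), in 7.93% of RT-only closed peaks, in 6.44% of open shared peaks and in 16.4% of genome windows. That position can lie within the same region, so a tandem repeat can count as multi-copy through its own copies. How many of the 218 did so was not counted. Over whole peaks the share of regions was also 22.9%. The share over whole peaks depended on this limit, at 69.6% for any such word and 6.83% for over 90% of words, and it was 35.4% with CS cut to its 4056 strongest peaks. CpG was sparse, with a mean of 1.58 per window, against 1.84 in RT-only closed peaks, 14.2 in open shared peaks and 1.64 in genome windows. No region matched the mitochondrial genome over 50 bp, which allows a share of up to 0.315%.

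The ETS core was less frequent in these regions than in the other classes and in genome windows. GGAA or its complement lay in the window of 293 regions (30.8%, interval 28 to 33.8%), against 58.1% of RT-only closed peaks, 75.2% of open shared peaks and 87.5% of genome windows. CCGGAA or its complement lay in 2 regions (0.21%, interval 0.0577 to 0.764%), against 0.991% of RT-only closed peaks, 12.0% of open shared peaks and 1.51% of genome windows. The 2 regions were chr1:85231198-85231489 in multi-copy sequence within C130026I21Rik, and chr9:111833943-111834093, which lay in no gene and was found in no list other than CS and RT. By sequence group, GGAA lay in 46 of 475 regions in the CA tract group (9.68%) and 153 of 211 in the group that met no criterion (72.5%). A match to these letters is a description of sequence and not a binding site.

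The strongest signals came from satellite and telomere-like sequence. At chr12:3109872-3110114, which lay in no gene and 78863 bp from the nearest Flox ATAC peak, the −log10 of the q-value that MACS2 gave the peak (−log10 q, a measure of how far it stands above the local background) was 690.2 in CS and 627 in RT. All single values of peaks that follow are −log10 q. The same place had 541 in EA+/+ and 372 in EC+/+ H3K27ac, 105 in EAKO and 122 in Flox H3K27ac, and 127 in beige Ets1. Libraries of both antibodies had a peak there, and the scale of −log10 q depends on the depth of each library. Of its 36-base words, 79.8% occurred at another position of the genome.

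A second satellite-related peak, chr6:103649049-103649286, lay in an intron of Chl1, a neural cell adhesion gene, with 598 in CS and 525 in RT. It had H3K27ac peaks of 355 in EA+/+, 282 in EC+/+ and 75.3 in Flox, but none in EAKO. On chromosome 9, chr9:3002020-3002245 overlapped exons of the predicted genes Gm10722 and Gm26870 and had 336 in CS and 256 in RT. This peak with its 500 bp flanks matched itself over 83.5% of bases at a shift of 234 bases. The other 3 of the 6 regions were chr2:98662237-98662940 at Gm10801, with 163 in CS and 141 in RT, and chr9:3035816-3036110 and chr9:3025758-3025938, with 53.4 and 38.5 in CS and 39.3 and 31.4 in RT in that order. None of the 6, which were chosen for absence from Flox ATAC, overlapped an EAKO ATAC peak. The same words were carried by 19 of the 839 open shared peaks. The strongest of all RT peaks was among those 19, at chr2:98666551-98667321 over Gm10800, with 3787 in CS and 3864 in RT, and with 14289 in Flox ATAC. Most RT peaks with satellite words, 20 of 27, were thus inside Flox ATAC peaks and not among the regions.

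Telomere-like runs of TTAGGG inside chromosomes, 13 in all, had the next strongest signal. The peak chr4:153153041-153153282 among them, 219938 bp from Ajap1, had 279 in CS, 206 in RT and 381 in beige Ets1. Others lay in introns of Lama1, a laminin chain, with 59.4 in CS and 73.8 in RT, of Flt1, a receptor for vascular growth factors, with 61.2 in CS and 73.3 in RT, and of Dop1b, with 54.5 in CS and 47.4 in RT. The median −log10 q of the 13 was 54.5 in CS and 47.4 in RT, and the lowest in RT was 5.18 in an intron of Ror2. Of genome windows, 1 of 26477 held such a run (0.00378%), and of the whole RT list 34 peaks did, 24 of them in CS.

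ACAGC runs had the highest share in CS of all sequence groups, close to that of satellite words (25 of 27, 92.6%). Of 63 RT peaks with such a run, 61 (96.8%) were in CS, 44 of which were outside Flox ATAC peaks, while only 3 genome windows (0.0113%) held one. The strongest of the 44 was chr13:74530438-74530652, 36445 bp from Zfp825, with 70.1 in CS and 96.3 in RT. The widest of all 951 regions, chr5:104330836-104331982 of 1147 bp in an intron of Mepe, a gene of bone and tooth matrix, belonged here, with 47.1 in CS and 42.7 in RT and with 145 in EAKO and 147 in Flox H3K27ac. At the promoter of Slc45a1, chr4:150644933-150645121 had 37.8 in CS and 19.6 in RT. Many of these runs shared sequence, since 172 regions on 20 chromosomes were linked by common 36-base words, among them all 44 ACAGC regions and 125 regions of the CA tract group. In all, 273 of the 951 regions shared a 36-base word with another, so the regions are not independent loci.

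The CA tract group was the largest, and weaker than the satellite, telomere-like and ACAGC groups. Its median −log10 q was 4.51 in CS and 4.41 in RT. The RT median was 3.32 for all RT peaks and 8.02 for the ACAGC regions. The strongest in single-copy sequence with an unbroken run was chr9:58767449-58767605, 23484 bp from Rec114. It had 21 in CS and 23.6 in RT, with 24.6% of its 36-base words found elsewhere in the genome. Others were chr10:115780532-115780991 near Tspan8, with 8.43 in CS and 10.5 in RT, and an intron of Trpc7, a cation channel gene, with 3.16 in CS and 8.19 in RT. Among CA tract regions with no unbroken run of at least 20 bp, chr10:3112580-3113083 had 121 in CS and 109 in RT. The region chr8:39152856-39153164 in an intron of Tusc3 had 28.1 in CS and 36.5 in RT. The best self-match of these windows was at a shift of 19 bases on chromosome 10 and 24 bases on chromosome 8. Over the whole RT list, 496 of 1183 CA tract peaks (41.9%) were in CS, compared with 947 of 2329 peaks with none of the repeats (40.7%). Of those 947, 736 were inside Flox ATAC peaks. Outside Flox ATAC peaks, 475 CA tract peaks were in CS and 670 were not. For peaks with none of the repeats these counts were 211 and 1255. The difference was not tested. In Flox ATAC peaks were 38 of the CA tract peaks (3.21%), against 863 (37.1%) of those with none of the repeats.

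Other short-period repeats, 157 regions, had a median −log10 q of 7.32 in CS and 5.68 in RT. The strongest, chr14:6637010-6637476, matched itself over 94.9% of bases at a shift of 45 bases, with 68.8 in CS and 81.0 in RT, 20.5 in EA+/+, 31.1 in EC+/+, 17.1 in EAKO and 21.6 in Flox H3K27ac. At chr3:3001765-3001961, the match was 69.2% at a shift of 42 bases, with 72.0 in CS and 77.5 in RT, and no other list held a peak there.

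Regions that met none of the criteria numbered 211, with a median −log10 q of 3.98 in CS and 3.76 in RT. The strongest was chr2:3050163-3050393, 162 bp from undetermined bases, with 56.4 in CS and 68.2 in RT. The region chr17:3082055-3082517 in the pseudogene Pisd-ps2 had 50.7 in CS and 49.1 in RT. Another, chr5:32726181-32726459 in Gm2420, lay 9841 bp from Pisd, the gene of a phosphatidylserine decarboxylase of mitochondria, with 22 in CS and 33.5 in RT. Within 100 kb of a stretch of undetermined bases lay 93 of all 951 regions (9.78%, interval 8.05 to 11.8%), against 3.49% of RT-only closed peaks and 10.5% of open shared peaks.

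**Figure D3:**
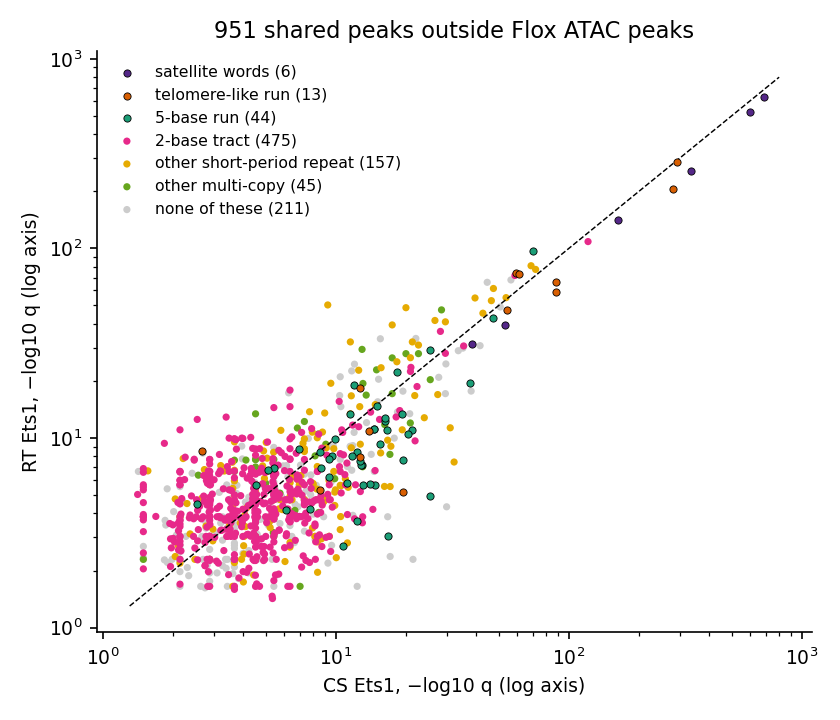
The −log10 q of each of the regions in RT (vertical log axis) against CS (horizontal log axis), coloured by sequence group, with the line of equal values dashed. Satellite words and telomere-like runs hold the upper end, at 690.2 in CS and 627 in RT for the strongest, and most CA tracts, labelled here as 2-base tracts, lie near their medians of 4.51 in CS and 4.41 in RT.

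By strength, the 951 regions held 0 of the 10 strongest RT peaks, 8 of the strongest 50, 41 of the strongest 100 and 236 of the strongest 500 (47.2%). Open shared peaks made up 10, 40, 57 and 201 of the same sets. The median −log10 q in RT was 4.73 for these regions (quartiles 3.16 and 7.07), against 2.97 for RT-only closed peaks and 4.32 for open shared peaks. RT strength and presence in CS moved together, and the part of strength in the presence was not tested. In CS the median was 4.96 for these regions and 12.1 for open shared peaks. The CS value was the higher one in 514 of the 951 regions (54.0%). With 1 library each, this does not show that a level was equal or changed. From the other side, 949 of 14858 CS peaks (6.39%) overlapped a region, while 6921 CS peaks (46.6%) lay outside Flox ATAC peaks.

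Between 47.1% and 60.6% of the regions carried an H3K27ac peak in each list. They overlapped a peak in EA+/+ in 576 cases (60.6%, interval 57.4 to 63.6%), against 42.7% of all RT peaks, and in EC+/+ in 473 cases (49.7%, 46.6 to 52.9%), against 37.8% of all RT peaks. The knock-out pair gave 448 in EAKO (47.1%, 44 to 50.3%), against 42.5% of all RT peaks, and 514 in Flox (54.0%, 50.9 to 57.2%), against 47.2% of all RT peaks. For RT-only closed peaks, these shares were 19.0% in EA+/+, 12.6% in EC+/+, 18.3% in EAKO and 22.6% in Flox. For open shared peaks they were 80.6% in EA+/+, 86.1% in EC+/+, 92.4% in EAKO and 95% in Flox, so the regions stood between both classes in every list. Peaks of all 4 H3K27ac lists were found at 260 regions (27.3%, 24.6 to 30.3%), compared with 24.3% of all RT peaks, 4.29% of RT-only closed peaks and 69.7% of open shared peaks, while 194 regions (20.4%) were in no H3K27ac list.

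The lists of beige Ets1 and EAKO ATAC were not used by the rule either. The EAKO ATAC list resembles the Flox ATAC list that the rule used, so its shares by class largely follow from the rule. Beige Ets1 peaks covered 161 regions (16.9%, 14.7 to 19.4%), against 24.3% of all RT peaks, 1.65% of RT-only closed peaks and 88.3% of open shared peaks. EAKO ATAC peaks covered 27 regions (2.84%, 1.96 to 4.1%), against 23.7% of all RT peaks, 0.613% of RT-only closed peaks and 94.3% of open shared peaks. The genome windows of 201 bp overlapped EAKO ATAC peaks in 3.04% of cases. With CS cut to its 4056 strongest peaks, beige Ets1 held 31.3% of the regions and EAKO ATAC 5.10%. In no list other than RT and CS were 184 regions (19.3%).

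**Figure D4:**
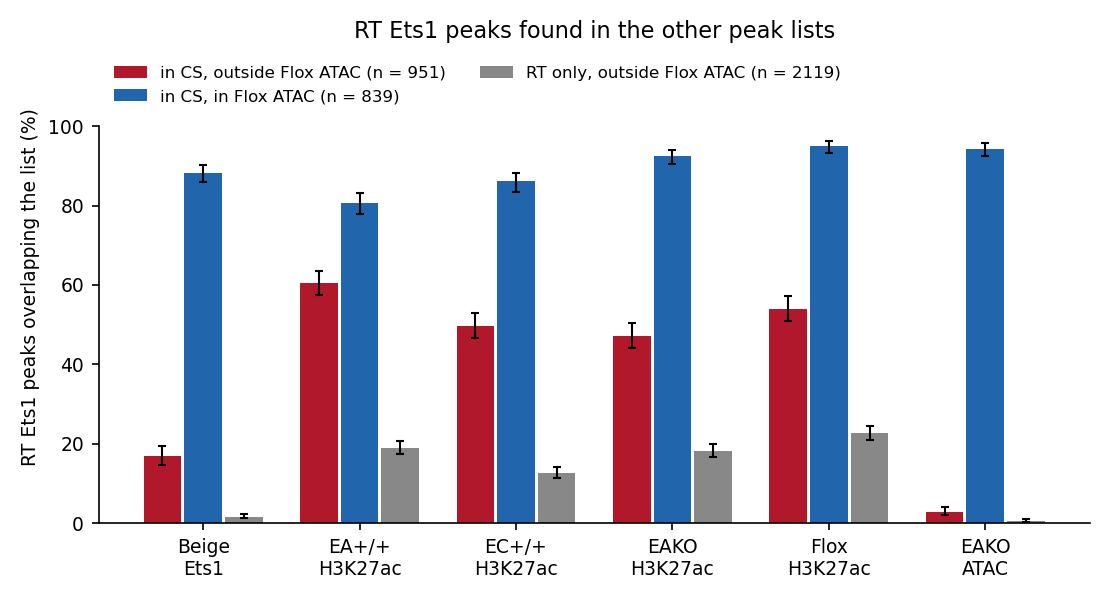
Share of RT peaks overlapping each list (vertical axis, %) for the regions in CS and outside Flox ATAC (red), the shared peaks inside Flox ATAC (blue) and the RT-only peaks outside Flox ATAC (grey), with Wilson 95% intervals for counting error only. The red bars stand between the blue and the grey in every list, at 60.6% in EA+/+ H3K27ac, for example, against 80.6% of the blue and 19.0% of the grey class. The EAKO ATAC bars largely follow from the choice of classes by Flox ATAC.

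Where a region overlapped a peak of another list, the overlap itself limits the distance between the summits. The median distance was 72 bp for CS, 72 bp for EA+/+, 62 bp for EC+/+, 92.5 bp for EAKO and 81 bp for Flox H3K27ac, and 72 bp for beige Ets1. Within 50 bp lay 35.5 to 43.6% of these pairs by list, against 27.6 to 31.8% for RT-only closed peaks (which have none in CS) and 33.7 to 43.5% for open shared peaks. The H3K27ac peaks at these regions ranked at a median percentile of 85.6 in the EA+/+ list and 80.8 in the EC+/+ list by −log10 q, against 59.6 in the EAKO list and 62.3 in the Flox list. Beige Ets1 peaks at the regions ranked low, at a median percentile of 35.1, whereas those at open shared peaks ranked at 96.3. Presence and strength ran together here too, with a median RT −log10 q of 3.84 in regions of no H3K27ac list and 5.68 in those of all 4.

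The sequence groups differed in the lists they were found in. All 44 ACAGC regions were in EA+/+ and Flox H3K27ac, 43 were in EC+/+ and 42 in EAKO, and 36 (81.8%, 68.0 to 90.5%) were in beige Ets1. Of the 17 open shared peaks with an ACAGC run, 16 were in EA+/+ and all 17 in EC+/+, EAKO and Flox. In beige Ets1 were 15 of the 17 (88.2%). Of 13 telomere-like regions, 12 were in EA+/+, 9 in EC+/+, 7 in EAKO and 9 in Flox H3K27ac, and 8 were in beige Ets1. The 11 telomere-like open shared peaks were all in EA+/+, EC+/+ and beige Ets1, with 8 in EAKO and 9 in Flox. The CA tract group had 58.9% in EA+/+, 39.8% in EC+/+, 44.6% in EAKO and 51.8% in Flox H3K27ac, with 10.9% (8.45 to 14.1%) in beige Ets1. For RT-only closed peaks of this group the shares were 29.4%, 15.2%, 20.3% and 24.9% in the same order, with 3.13% in beige Ets1. For the 21 open shared peaks of this group they were 100%, 81.0%, 81.0% and 90.5%, with 38.1% in beige Ets1. Of the 211 regions that met no criterion, 49.8% were in EA+/+, 45.5% in EC+/+, 45.5% in EAKO and 50.2% in Flox H3K27ac, and 10.4% were in beige Ets1. For RT-only closed peaks that met none these shares were 12.0%, 10.3%, 16.3% and 20.4%, with 0.637% in beige Ets1. For open shared peaks that met none they were 78.3%, 85.5%, 95.1% and 97.7%, with 91.7% in beige Ets1. Many regions share sequence and each list is 1 library, so these shares do not test whether the sequence groups differ.

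The 45 other multi-copy regions separated the H3K27ac libraries by pair. They were in EA+/+ in 21 cases (46.7%, 32.9 to 60.9%) and in EC+/+ in 25 (55.6%, 41.2 to 69.1%), against 3 in EAKO (6.67%, 2.29 to 17.9%) and 4 in Flox (8.89%, 3.51 to 20.7%). Of the 68 RT-only closed peaks of this group, 8 were in EA+/+, 4 in EC+/+, 3 in EAKO and 4 in Flox. Of the 5 open shared peaks of this group, 3 were in EA+/+, 3 in EC+/+, 3 in EAKO and 2 in Flox. Of the 6 satellite regions, 6 were in EA+/+ and 5 in EC+/+, compared with 1 in EAKO and 3 in Flox. The 19 open shared peaks with satellite words were split the same way, with 19 in EA+/+, 18 in EC+/+, 10 in EAKO and 10 in Flox. Over all 951 regions, 191 (20.1%) were in a knock-in list or its control and in neither of the other pair, and 109 (11.5%) the reverse. The intervals count regions within 1 library each, the same regions are scored in every list, and many share sequence. They therefore cannot test EA+/+ against EC+/+ or EAKO against Flox. The mouse line, the size of the lists and other properties of each library pair cannot be told apart.

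**Figure D5:**
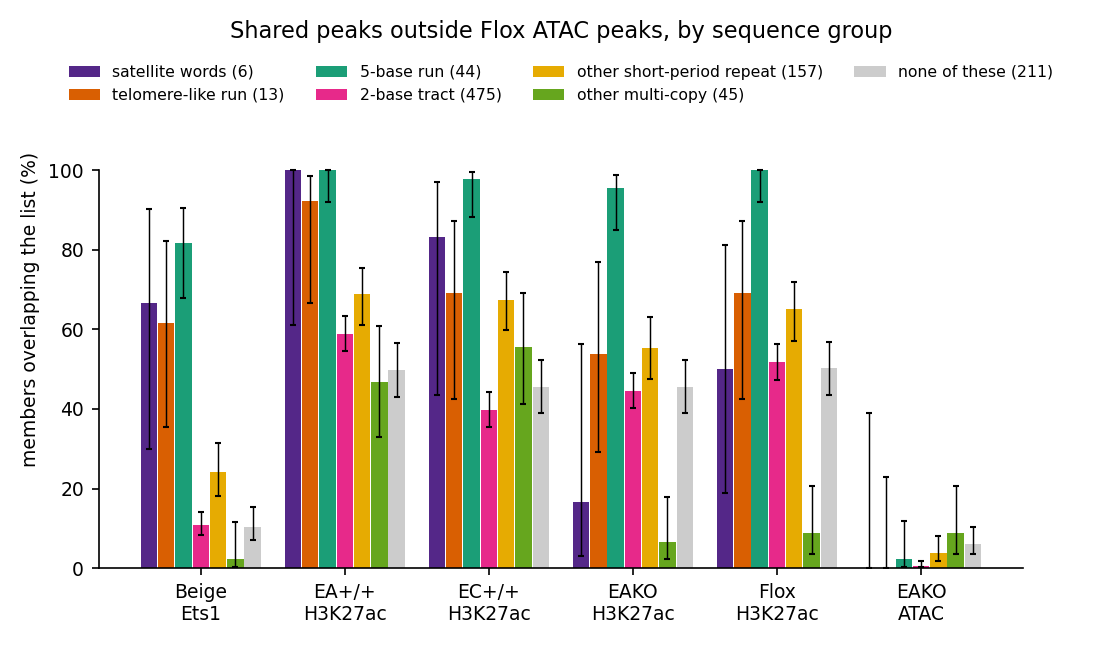
Share of the 951 regions in each other list (vertical axis, %) by sequence group, with the number of regions in brackets and Wilson 95% intervals for counting error only. The ACAGC runs, labelled as 5-base runs, reach 81.8% in beige Ets1 and 100% in Flox H3K27ac, and other multi-copy regions stand at 46.7% in EA+/+ and 8.89% in Flox H3K27ac.

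The regions found in all of the other 6 lists were 3. They were chr12:113424369-113425232 in the immunoglobulin heavy chain locus, 64278 bp from Adam6b, with 30.9 in CS and 11.3 in RT and 129.9 in EAKO and 112 in Flox H3K27ac, chr11:77649460-77649990 with an ACAGC run, and chr16:67077336-67077494 in an intron of Cadm2. The first held an unbroken run of 40 bp of the 5-base unit AGCTC.

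At the edge of the rule, the 3 regions closest to a Flox ATAC peak lay 2 bp, 5 bp and 14 bp from it. They were in Lncppara, in an intron of Cdh13 and at the promoter of Hnrnpf, with 6.46, 8.12 and 5.75 in CS and 3.03, 3.52 and 3.54 in RT. Just outside the rule, the 3 open shared peaks with the least overlap shared 15 bp, 24 bp and 34 bp with a Flox ATAC peak at the promoters of Hook3, Iffo1 and Rims1, with 5.22, 2.82 and 1.89 in CS and 2.93, 3.10 and 2.78 in RT. The median distance to a Flox ATAC peak was 12180 bp over the 951 regions and 18084 bp for RT-only closed peaks.

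The regions were spread over introns and intergenic sequence. Intergenic sequence held 471 (49.5%), introns 425 (44.7%) and exons outside promoters 21 (2.21%). Promoters, taken as 1 kb on each side of a transcription start of a coding gene, held 34 (3.58%, 2.57 to 4.95%), against 3.07% of RT-only closed peaks and 77.6% of open shared peaks. With promoters of 3 kb on each side the share was 8.52%. Of the 34, 21 met none of the repeat criteria. At 13 of the 34 the nearest Flox ATAC peak was within 1 kb, and several of those had strong beige Ets1 peaks. The promoter of Maz, a zinc finger factor, had 339.8 in beige, 29.9 in CS and 4.34 in RT at 160 bp from a Flox ATAC peak. The promoter of Sp3, another zinc finger factor, had 168 in beige, 12.3 in CS and 1.65 in RT, and that of Hnrnpf, an RNA-binding protein, had 157 in beige, 5.75 in CS and 3.54 in RT. These 3 promoters were picked after their values had been seen. Far from open chromatin, the promoter of 4931408C20Rik had 12.0 in CS and 24.5 in RT at 92695 bp from a Flox ATAC peak.

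Of 21938 coding genes, 31 (0.141%) had a region at a promoter and 356 (1.62%) had one within the gene. Among 20 thermogenic genes 1 had a region within it, Prdm16, a coregulator of the brown and beige programme. Of 22 adipocyte, 28 core autophagy and 18 ETS family genes, 0 had one, and none of these lists had a promoter region. Of the 9 lists of marker genes of other cell types, none had a region at a promoter or within a gene. The Prdm16 intron held chr4:154623079-154623301, a CA tract covering 56.2% of the window, with 4.2 in CS, 4.41 in RT and 3.32 in EAKO H3K27ac.

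Regions also clustered. With gaps of at most 10 kb, 107 regions lay near another, and 45 of them formed 8 clusters of 3 or more. The largest was chr11:3137298-3181913 over Sfi1, a centrosome gene, 37297 bp from undetermined bases. It held 14 regions that met no repeat criterion, at −log10 q of 3.84 to 24.6 in RT. All 14 were in EA+/+ and EC+/+ H3K27ac, against 8 in EAKO and 8 in Flox, and 0 were in beige Ets1. The cluster chr7:64468340-64500359 near Apba2, a neuronal adaptor gene, had 9 regions, all multi-copy, of which 8 shared 36-base words with each other. The cluster chr7:59767461-59779112 in Snhg14, a host transcript of small nucleolar RNAs, had 5 multi-copy regions, with 4 in EA+/+, 5 in EC+/+ and 0 in EAKO and Flox H3K27ac. Clusters of 4 lay at chr17:3006815-3013408 and chr16:3231615-3246729, 416 bp and 40 bp from undetermined bases.

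Per chromosome, regions were densest on chromosome 8, with 62.1 per 100 Mb of known sequence, and sparse on chromosomes X and Y, with 5.5 and 3.4. The whole RT list was sparse on X too, with 28 peaks, of which 9 were regions. As a share of RT peaks, the regions ranged between 15.9% on chromosome 19 and 29.5% on chromosome 8 among the autosomes.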

How the data were processed

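Adaptors were trimmed with trimmomatic, reads were aligned with BWA to mm10, and peaks were called per library with MACS2 at a q-value under 0.05, by the authors. The methods name normal IgG among the CUT&Tag antibodies and uniquely mapped reads for the signal tracks. Whether IgG libraries or that read filter entered the peak calls, and whether regions with excess signal were removed, is not given in the sources used here. The deposited values of a peak are a score, a fold enrichment (a ratio over the local background), p-value and q-value as −log10, and a summit offset. These values depend on depth, which the lists do not hold and which the paper gives as reads per library. They were used to rank and describe peaks.

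Lists were compared by overlap of at least 1 bp. Sequence was read from GRCm38.p6, the same build, and genes from GENCODE M21. Tandem runs had units of 1 to 6 bases, at least 3 copies and at least 20 bp. Multi-copy means that over 50% of the 36-base words of a peak occurred at another position on either strand of the genome, positions within the same peak included. Satellite words are the 36-base words of the regions linked, through shared words, to a region with a self-match of at least 60% at a shift of 234 bases. Mitochondrial matches were sought with blastn 2.17.0. Overlap and run functions were tested on simulated data. Intervals are Wilson 95%. Files were read with pandas 2.3.3.

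Named regions are the 10 strongest, the 5 strongest each of single-copy CA runs, single-copy peaks with no run and promoters, the 5 widest, those in all other lists, clusters, and those at the edge of the rule. Some of these are printed, chosen with their values known, and the strongest of each sequence group and CCGGAA holders were added after the sequences were seen. The regions and gene lists were chosen with earlier results of these data known. Alternatives were the overlap, the q-value, the distance from ATAC peaks, the ATAC library, the size of the CS list, multi-copy sequence and the limits of each sequence measure. Results on some items withheld for evaluation are not reported here.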

Additional observations from a re-analysis of the deposited data

How the results depend on the processing

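No paired analysis was possible because each group had 1 library, so no replicate could be left out. Under the alternatives listed first, 43 values stayed within the interval of the value reported (within 1.5 times for the number of regions) and 24 did not. The cause was not tested. A −log10 q of at least 3 in every list left 630 regions, 24.8% of the RT peaks past that limit, with 28.4% in multi-copy sequence. With only the 4056 best CS peaks, 412 regions remained, 10.2% of RT peaks, with 61.9% in Flox H3K27ac, 40.8% in all 4 H3K27ac lists, 31.3% in beige Ets1, 5.10% in EAKO ATAC, 7.77% with a CA run and 35.4% in multi-copy sequence. The regions made up 20.2% of RT peaks at an overlap of at least 50% of the peak (13.2% of them in beige Ets1), 21.4% with no Flox ATAC peak within 1 kb (2.42% at promoters), 19.6% by the summit base, and 20.3% of those RT peaks that are not multi-copy (24.0% in all 4 H3K27ac lists, 11.5% in beige Ets1). A CA run was present in 28.3% at 12 bp and 4.21% at 30 bp, multi-copy sequence in 6.83% at over 90% of words and 69.6% at any word, and a 3 kb promoter in 8.52%. Among alternatives chosen after seeing the data, leaving out satellite, telomere-like and ACAGC regions gave 24.0% in all 4 H3K27ac lists and 12.7% in beige Ets1, a CA tract of at least 50% was present in 39.9%, and a self-match of at least 70% in 39.5%.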
